A study of Bos taurus with 4 samples.

Results

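The conjugation machinery of autophagy was read in ejaculated spermatozoa of Murrah buffalo bulls through 10 genes: ATG3, ATG4B, ATG5, ATG7, ATG10, ATG12, BECN1, MAP1LC3B, GABARAP and GABARAPL2. These were selected on earlier results of the same arrays, in which ATG3 stood out between low-fertile and high-fertile pools, and every probe whose gene name on the array was one of these 10 symbols was taken. That gave 10 of 32429 gene names, with 28 of the 51282 probes that are not controls. The sperm were Percoll-selected and came from breeding bulls classed by conception rate. The 4 arrays comprised 2 pools from high-fertile and 2 from low-fertile bulls, RNA of 2 bulls entered each, and no treatment is named for either group. The array is a Bos taurus design, so buffalo RNA was hybridised to cattle sequences, and the sources used here do not say which bulls entered which pool. Pool 1 and pool 2 are numbers within a group. Each p-value below is from limma, a linear model. It combines a probe's own spread between pools of 2 bulls with the spread over all probes fitted together.

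Autophagy wraps cytoplasm in a double membrane, and the growth of that membrane depends on a pair of ubiquitin-like conjugation reactions. ATG7 is the activating enzyme of both, and it passes ATG12 to ATG10 and the ATG8 proteins (MAP1LC3B, GABARAP, GABARAPL2) to ATG3. ATG10 joins ATG12 to ATG5, and ATG3 joins the ATG8 proteins to the lipid phosphatidylethanolamine, with the ATG12-ATG5 conjugate as a helper. ATG4B is the protease that prepares ATG8 proteins and later cuts them from the lipid, and BECN1 belongs to the lipid kinase complex that marks the site of membrane growth. In the male germ line, loss of ATG7 in mice is known to disturb formation of the acrosome, and mature sperm, which transcribe little or nothing, carry RNA left from earlier stages.

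The probes on which the ATG3, ATG7 and ATG4B results rest are shown because different probes of the same gene gave different results. Each is 60 bases long, is written 5′ to 3′ as the scanner files give it, and holds a reading frame free of stop codons.
ATG3, position 748: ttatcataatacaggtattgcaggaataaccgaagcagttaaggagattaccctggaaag
ATG7, position 608: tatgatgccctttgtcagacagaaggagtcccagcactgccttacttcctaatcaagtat
ATG7, position 1217: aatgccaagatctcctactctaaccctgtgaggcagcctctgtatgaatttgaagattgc
ATG4B, position 508: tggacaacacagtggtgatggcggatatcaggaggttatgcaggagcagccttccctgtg
A position is the base of the transcript where the probe starts. In the Btau_3.1 cattle genome the ATG3 probe lies at chr1:58053397-58056135 on the minus strand. The ATG4B probe lies at chr3:126737483-126739706 on the plus strand. These spans are 2739 and 2224 bases for 60 bases of probe, so both probes cross an exon junction. The ATG7 probes at positions 608 and 1217 are placed on an unplaced scaffold, while the other 3 ATG7 probes are placed on chromosome 22.

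Most of the 28 probes were dim. A value is given below as the normalised log2 signal, in which 0 is the 75th percentile of the array, and the scanner software marks whether a spot is well above background. Of the 28 probes, 16 were well above background on no array, 9 on 1 to 3 arrays and 3 on all 4, namely the ATG7 probe at position 608, the ATG4B probe at position 508 and the MAP1LC3B probe at position 1727. A probe was tested if either group had it well above background on both of its arrays, as was the case for 9 probes of 8 genes. ATG12 and GABARAPL2 had no tested probe. Of these 9, 3 passed through both groups, 5 through the high-fertile pair alone and 1, ATG3, through the low-fertile pair alone, so the filter favours probes that are bright in that group. All 5 that passed through the high-fertile pair alone were well above background on low-fertile pool 1 and not on low-fertile pool 2. That array had the fewest bright probes of the 4, with 13033 probes well above background where the other arrays had 23228 to 25642, and its 75th percentile signal was 32.65 against 36.7 to 37.12.

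**Figure D1:**
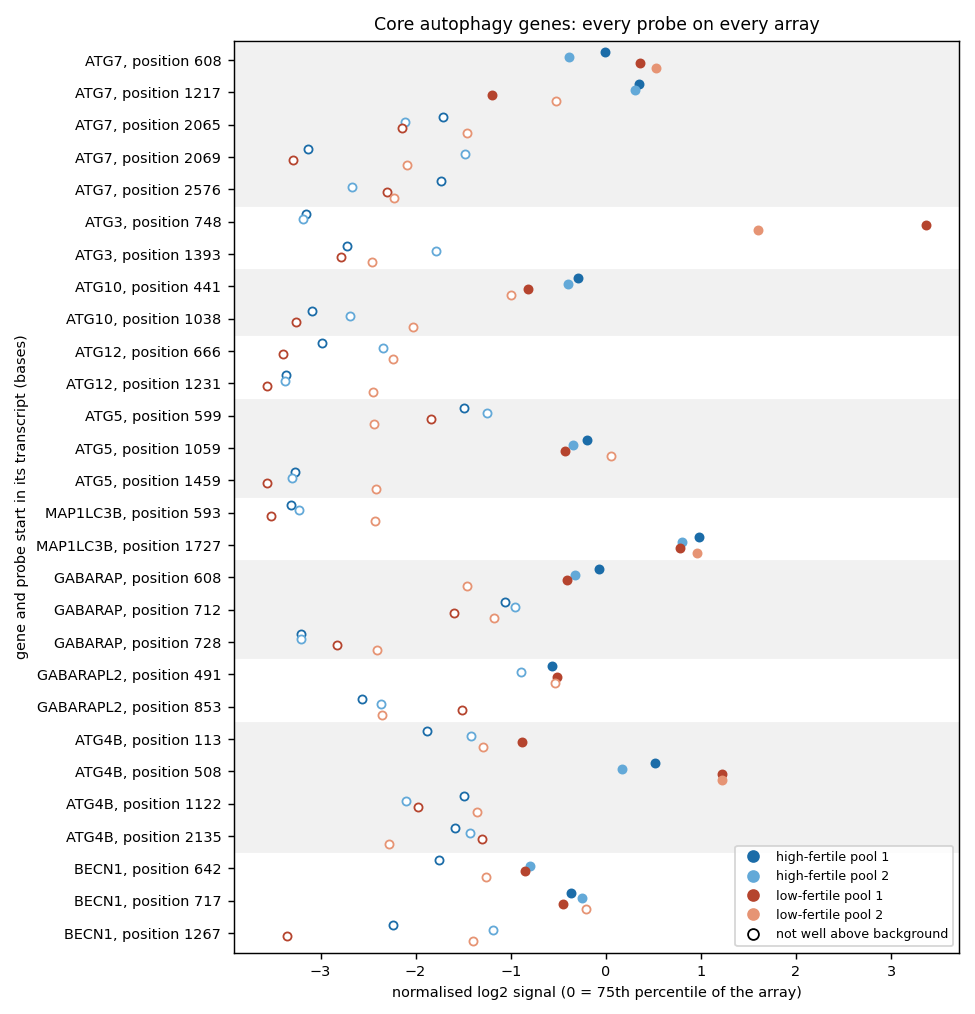
Normalised log2 signal (x axis) of each of the 28 probes (rows, by gene and start in the transcript) in the 4 pools. Filled points were well above background and open points were not. The ATG3 probe at position 748 is the row where the low-fertile pools, at 3.37 and 1.60, lie far from the high-fertile pools, at -3.15 and -3.19.

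ATG3, the enzyme that carries ATG8 proteins to the lipid, was listed by 2 probes that did not move together. The probe at position 748 (A_73_P276231) had a normalised log2 signal of -3.15 and -3.19 in high-fertile pools 1 and 2, against 3.37 and 1.60 in low-fertile pools 1 and 2. It was bright in both low-fertile pools and at the bottom of the scale in both high-fertile pools, where the software had replaced the signal by a surrogate value, its estimate of the lowest usable signal. The processed signals behind these values were 4.13 and 4.08 in high-fertile pools 1 and 2, and 383.2 and 98.7 in low-fertile pools 1 and 2. The group means were -3.17 ± 0.026 and 2.48 ± 1.26 (SD, n = 2 each), a low minus high fertile difference of 5.65 on the log2 scale. Because the probe was not well above background in either high-fertile pool, the measured ratio has no fixed size. Against the lowest signal well above background on each high-fertile array, the probe was at least 12.3-fold higher in the low-fertile pools, which is 3.62 on the log2 scale. The limit differed between the low-fertile pools, at least 22.7-fold for pool 1 alone and at least 6.63-fold for pool 2 alone. With normexp background correction, which adds an offset of 50 to every signal, the difference was 2.24, below this limit. In bulk RNA, fewer cells that carry a transcript and less of it per cell cannot be told apart. ATG3 was chosen on this difference, so its size is a description and carries no test.

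The other ATG3 probe, at position 1393 (A_73_101430), read -2.72, -1.79, -2.79 and -2.45 in high-fertile pools 1 and 2 and low-fertile pools 1 and 2. It was not well above background in any pool, the groups overlapped, and its low minus high fertile difference was -0.37. The label reaction starts from the poly(A) end of the RNA, and this dim probe is the one nearer to that end. For ATG4B, ATG5, ATG7, ATG10, ATG12, BECN1, GABARAP and GABARAPL2 the probe nearest to that end was also well above background on no array. That of MAP1LC3B was well above background on all 4 arrays. Whether position in the transcript bears on these signals was not tested. The ATG3 probe at position 1393 lies at chr1:58042576-58042635 on the minus strand of Btau_3.1.

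The spots printed around the ATG3 probe at position 748 were also raised on the low-fertile arrays. For each spot, its value on an array was set against the median of the other 3 arrays. On low-fertile pool 1, 3 of the 6 nearest spots were raised by over 2 log2 units, and on low-fertile pool 2 the same 3 were. They were C5H12orf73, raised by 2.13 and 2.95, C3H1orf226, raised by 2.36 and 3.28, and IHH, raised by 3.19 and 4.83. C5H12orf73 and C3H1orf226 were not well above background on either high-fertile array, nor IHH on that of pool 2, and ELMO1 and ABHD3 were so on no array, so the sizes of these rises are measured against undetected values and are not fixed. The signal of the IHH spot was 21.7 and 14.9 in high-fertile pools 1 and 2, and 200.2 and 549.8 in low-fertile pools 1 and 2, so the low-fertile pool that was dimmer at ATG3 was brighter at IHH. The remaining 3 of the nearest 6 were ELMO1, raised by 1.12 and 1.80, TIA1, by 0.18 and 0.14, and HARS2, which was below the other arrays, at -0.79 and -0.81. Among the next 18 spots, ABHD3 and NFKBIA were raised by over 2 on low-fertile pool 2, by 2.74 and 2.72, and none on low-fertile pool 1. The median low minus high fertile difference was 2.20 over the 6 nearest spots and 0.050 over the next 18. On the high-fertile arrays none of the 24 nearest spots was raised by over 2.

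**Figure D2:**
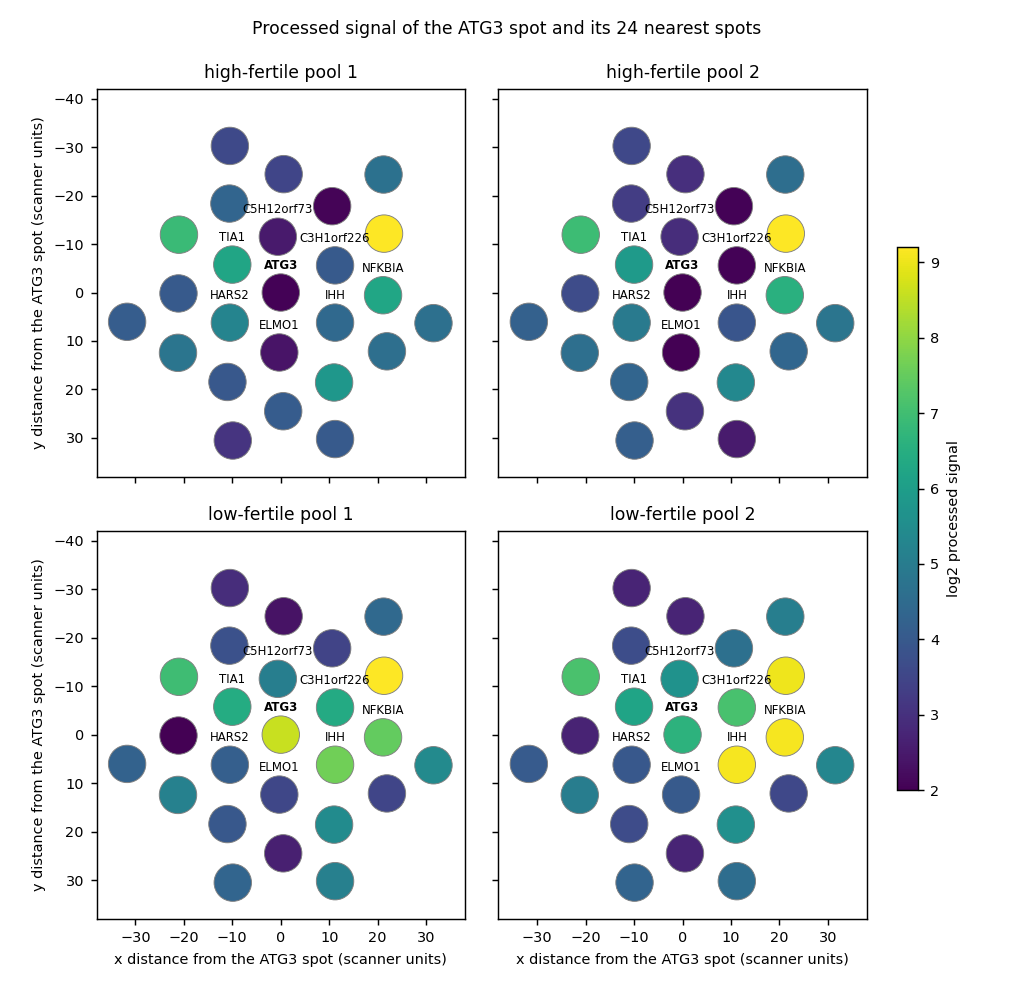
Processed signal (colour, log2) of the ATG3 spot at position 748 and its 24 nearest spots on each array, by distance from the ATG3 spot in scanner units. Gene names stand above their spots. Between the high-fertile and low-fertile arrays the colour changes most at ATG3, C5H12orf73, C3H1orf226 and IHH, with IHH at 200.2 and 549.8, where the high-fertile arrays have 21.7 and 14.9.

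Raised neighbourhoods of this kind were rare. Between 0.187% and 0.277% of the 61657 spots on an array had 3 or more of their 6 nearest spots raised by over 2. On both low-fertile arrays at once this held for 2 spots of the whole array, which were the ATG3 spot and the C3H1orf226 spot beside it, and each of these 2 counts among the neighbours of the other. On both high-fertile arrays at once it held for 1 spot. Around the dim ATG3 probe at position 1393, none of the 24 nearest spots was raised by over 2 on any array. The ATG3 spot at position 748 was also uneven. The SD of its pixels relative to their mean was 0.375 and 0.353 on the low-fertile arrays, where the median over spots within 1.5-fold of its mean signal was 0.139 and 0.198, and 99.2% and 99.8% of those spots were more even. The software marked the spot as an outlier on no array.

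Apart from a dim probe of ABHD3, other probes of the genes with raised spots did not show a rise of over 1 log2 unit. IHH, a secreted signal of the hedgehog family, had another tested probe, which read 0.57, 0.62, -0.45 and -1.21, so it was lower in both low-fertile pools. The other 2 probes each of C5H12orf73 and C3H1orf226 were well above background on no array, and their differences were 0.35 and -0.43, and 0.25 and -1.44. NFKBIA, an inhibitor of NF-kappaB, had 3 other probes with differences of 0.28, -0.40 and 0.086, against 1.95 at the spot near ATG3. ABHD3 differed in that 1 of its 2 other probes, also not well above background on any array, had a difference of 1.38 and the other -0.98. What share of the ATG3 difference belongs to the spot's surroundings was not tested.

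**Figure D3:**
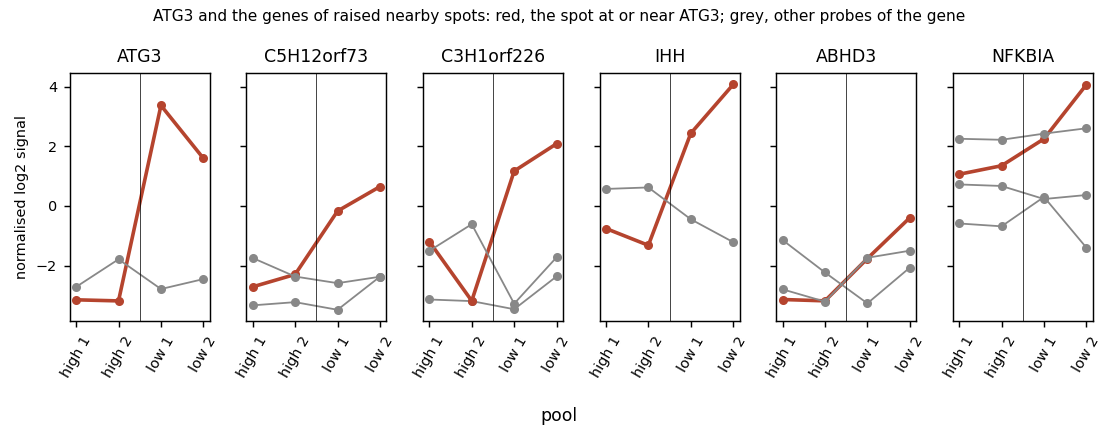
Normalised log2 signal (y axis) in the 4 pools (x axis) for every probe of ATG3 and of the 5 genes with a spot raised by over 2 on low-fertile pool 2 near ATG3. Red lines are the spots at or near ATG3 and grey lines are other probes of the same gene. The red IHH line ends at 4.07 in low-fertile pool 2 and the grey IHH line at -1.21.

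The genes whose pattern over the 4 pools was most like that of the ATG3 probe were partly those same neighbours. Likeness was the Euclidean distance between the 4 values of each tested probe after centring, over probes with a gene symbol. The closest was IHH at a distance of 2.80 log2 units, followed by BCAS1 at 2.87, MIER1 at 2.95, C7H19orf66 at 2.96 and C3H1orf226 at 2.98. IHH and C3H1orf226 are among the 6 spots nearest to ATG3 and the other 3 are not among the 24 nearest. The high-fertile values of the ATG3 probe are surrogates, so these distances and their order depend on that floor. None was close, since the smallest distance exceeded 2 log2 units over only 4 arrays, and the ranking is a description.

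ATG7, which activates both ubiquitin-like systems, gave opposite differences at its brighter probes. The probe at position 608 read -0.010 and -0.39 in high-fertile pools 1 and 2, and 0.36 and 0.53 in low-fertile pools 1 and 2. It was higher in both low-fertile pools with no overlap, and its low minus high fertile difference was 0.64. The probe at position 1217 read 0.35 and 0.31 in high-fertile pools 1 and 2, and -1.20 and -0.53 in low-fertile pools 1 and 2, a difference of -1.19. It was lower in both low-fertile pools, again with no overlap, and was not well above background on low-fertile pool 2. The remaining ATG7 probes, at positions 2065, 2069 and 2576, were well above background on no array, and their differences were 0.11, -0.38 and -0.066. The probes at positions 2065 and 2069 share an unbroken run of 26 bases and are not independent. With the median over all 5 probes the ATG7 difference was -0.20, where the brightest probe gave 0.64, or 0.34 with normexp background correction, so no single direction described the gene. RefSeq assigns 1 further probe, listed on the array under an accession, to ATG7, and the selection by gene name left it out.

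ATG10 and the ATG12-ATG5 pair that it joins were near the detection limit. The ATG10 probe at position 441 read -0.30 and -0.40 in high-fertile pools 1 and 2, and -0.81 and -0.995 in low-fertile pools 1 and 2, a difference of -0.55. All values of the low-fertile pools lay below those of the high-fertile pools, and low-fertile pool 2 was not well above background. The other ATG10 probe was well above background on no array and differed by 0.25. The ATG10 difference was -0.10 with normexp background correction and -0.15 with the median over both probes. ATG12, the ubiquitin-like protein itself, was well above background on no array at either probe, with differences of -0.15 and 0.36. The former had no settled sign, at -0.73 without low-fertile pool 2, 0.43 without low-fertile pool 1 and 0.17 without high-fertile pool 2. For ATG5, its partner, the brightest probe read -0.19, -0.35, -0.43 and 0.052 in high-fertile pools 1 and 2 and low-fertile pools 1 and 2. The groups overlapped at that probe and the difference was 0.081. The other 2 ATG5 probes were well above background on no array, with differences of -0.76 and 0.30.

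Among the ATG8 proteins, MAP1LC3B had overlapping groups. The gene encodes LC3B, the ATG8 protein most used to follow autophagosomes. Its probe at position 1727 was well above background in all 4 pools and read 0.98 and 0.81 in high-fertile pools 1 and 2, and 0.78 and 0.96 in low-fertile pools 1 and 2. The difference was -0.029, and the spread between pools of a group (pooled SD 0.13) was larger than it. Scaled to spike-in probes the difference was -0.40. The other MAP1LC3B probe, at position 593, was dim in all 4 pools, at -3.31, -3.23, -3.52 and -2.43. GABARAP, a relative of LC3B, read -0.068 and -0.32 in high-fertile pools 1 and 2, and -0.41 and -1.46 in low-fertile pools 1 and 2 at its brightest probe. The difference of -0.74 rested on low-fertile pool 2, which was not well above background there, and without that pool it was -0.21. Without low-fertile pool 1 it was -1.27. The other GABARAP probes overlap by 44 bases, were well above background on no array, and differed by -0.38 and 0.59. GABARAPL2, the third ATG8 protein, read -0.56, -0.89, -0.51 and -0.53 at its brighter probe, with a difference of 0.20. That probe was well above background in high-fertile pool 1 and low-fertile pool 1 alone, so GABARAPL2 was not tested. Its other probe, at position 853, was well above background on no array and read -2.57, -2.36, -1.51 and -2.36, a difference of 0.53.

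ATG4B, the protease that trims and recycles ATG8 proteins, was higher in the low-fertile pools at its bright probe. The probe at position 508 was well above background in all 4 pools and read 0.52 and 0.17 in high-fertile pools 1 and 2, and 1.22 and 1.22 in low-fertile pools 1 and 2. The groups did not overlap, and the difference was 0.87 with a pooled SD of 0.17. It was 0.38 with normexp background correction and 0.27 with the median over the ATG4B probes. The ATG4B probe at position 113 differed in the same direction, by 0.56, at -1.88, -1.42, -0.88 and -1.29, and was well above background in low-fertile pool 1 alone. The probes at positions 1122 and 2135 were well above background on no array and differed by 0.13 and -0.28. BECN1, of the lipid kinase complex, read -0.37, -0.25, -0.45 and -0.21 at its brightest probe, a difference of -0.020 with overlapping groups. Its other probes differed by 0.22 and -0.66, and the latter had a pooled SD of 1.11.

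**Figure D4:**
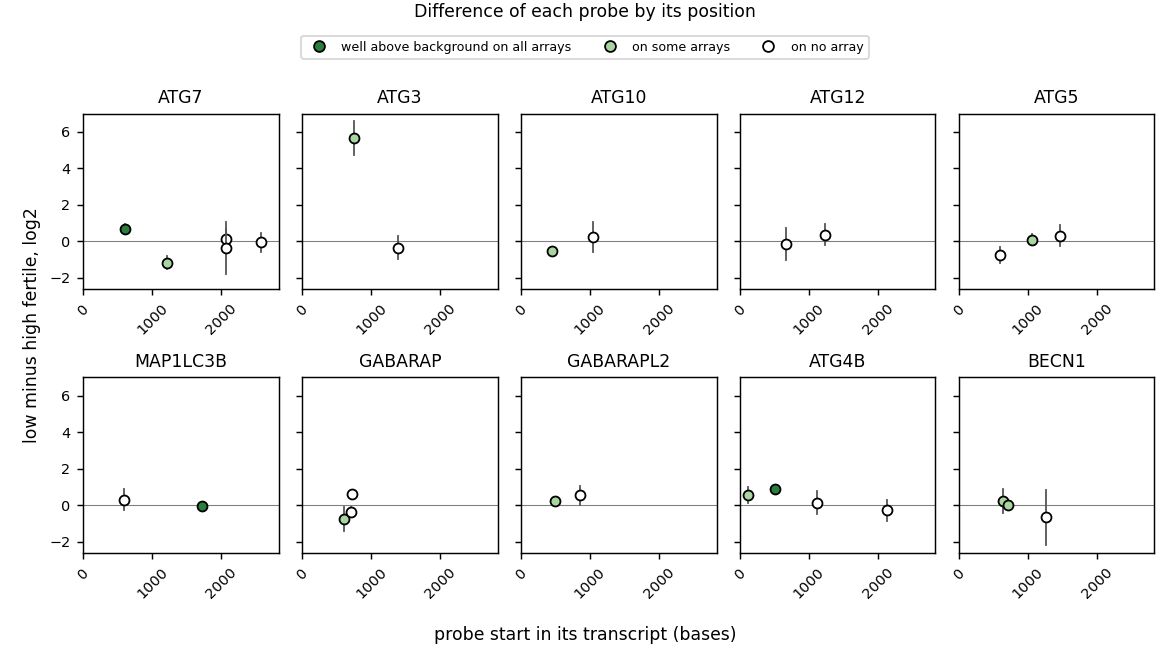
Low minus high fertile difference (y axis, log2) of every probe of the 10 genes by its start in the transcript (x axis, bases). Lines span the 4 differences between single pools, and the fill shows on how many arrays the probe was well above background. The ATG3 probes differ by 5.65 and -0.37, and the brighter ATG7 probes by 0.64 and -1.19.

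Over the whole array, limma called 5632 of 21033 tested probes at an adjusted p of 0.05, which is 26.8%. In the low-fertile pools 9.22% of the tested probes were called higher and 17.6% were called lower. Of the 9 tested probes of the 10 genes, 4 passed that threshold. ATG3 at position 748 and ATG4B at position 508 were higher, and ATG7 at position 1217 and ATG10 at position 441 were lower. The groups did not overlap for 6 of the 9, 3 higher and 3 lower, where 69.1% of all tested probes did not overlap. Since the genes were selected on this comparison, nothing is read from these counts. The median difference of the 9 probes was -0.020, beside -0.0047 over all tested probes. Without high-fertile pool 1 the count over the array was 2872, and without high-fertile pool 2 it was 2644. The balance of directions depended on scale and filter. Calls were 34.4% higher in the main analysis, 7.89% higher when arrays were scaled to 7 spike-in probes, which moved the median of all tested probes to -0.38, and 62.6% higher where only probes well above background on every array were fitted. On the spike-in scale the median of the brightest probes of the 10 genes was -0.34, where it was 0.031 on the main scale. On the spike-in scale the differences at the brightest probes were 5.28 for ATG3, 0.50 for ATG4B, 0.27 for ATG7, -0.93 for ATG10, -1.11 for GABARAP, -0.52 for ATG12, -0.40 for MAP1LC3B, -0.39 for BECN1, -0.29 for ATG5 and -0.17 for GABARAPL2, so the last 2 changed sign.

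The wider autophagy pathway was read from 47 further genes, grouped by function, of which 45 were on the array and 26 had a tested probe. Each gene was read from its brightest tested probe. In limma 6 of the 26 genes were higher in the low-fertile pools, 3 were lower and 17 did not pass an adjusted p of 0.05. That is 34.6% of genes beside 26.8% of all tested probes, but 4 of the 9 called genes entered the test through 1 group alone, the group where they were high. Of the 19 genes read from a probe well above background on every array 5 were called, or 26.3%, beside 23.1% of all such probes. A fit restricted to such probes called 9 of the 19, 7 higher and 2 lower, and 4339 of 12552 probes. The median difference of these 19 was 0.29 beside 0.15 over all such probes. Scaled to the spike-in probes, 3 of all 26 tested genes were called higher and 6 lower.

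The kinase complex that starts autophagy had 2 tested genes of 5. ATG101, a subunit of that complex listed on the array as C5H12orf44, read 1.67 and 1.77 in high-fertile pools 1 and 2, and 3.31 and 3.34 in low-fertile pools 1 and 2. It was higher in both low-fertile pools by 1.61 ± 0.14 (SE, limma adjusted p = 0.0027). Its other 2 tested probes differed by 0.50 and 0.54, and the adjusted p in limma was 0.083 for the median of its probes, in a range of 0.00020 to 0.12 over all alternatives. ULK1, the kinase of the complex, had a difference of 1.13 ± 0.17 (SE, limma adjusted p = 0.0089). With no filter on dim probes the limma adjusted p of ULK1 was 0.15, and with normexp background correction its difference was 0.42. ULK1 is named after its values were seen and entered the test through the low-fertile pair alone, the group where it was high, so the filter itself favoured this direction.

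None of the 3 tested genes of the lipid kinase complex passed. PIK3C3, its catalytic subunit and the partner of BECN1, read 2.67 and 2.67 in high-fertile pools 1 and 2, and 2.24 and 2.11 in low-fertile pools 1 and 2, a difference of -0.50 (limma adjusted p = 0.055). NRBF2 and SH3GLB1, the other tested genes of this group, went the other way, at 0.42 and 0.43 (limma adjusted p = 0.079 and 0.13). Among the 7 tested genes of membrane lipid transfer and lipid binding, ATG2A and WIPI1 were higher and TMEM41B was lower. ATG2A, a lipid transfer protein, read 0.32 and -0.48 in high-fertile pools 1 and 2, and 1.12 and 1.07 in low-fertile pools 1 and 2, a difference of 1.18 ± 0.28 (SE, limma adjusted p = 0.032). Its other 2 tested probes differed by 0.00089 and 0.080. WIPI1, which binds the lipid made by PIK3C3, read -0.74 and -0.56 in high-fertile pools 1 and 2, and -0.072 and -0.063 in low-fertile pools 1 and 2, a difference of 0.58 ± 0.15 (SE, limma adjusted p = 0.039). The limma adjusted p of ATG2A was 0.085 and 0.088 when low-fertile pools 1 and 2 were left out and 0.074 when high-fertile pool 2 was, in a range of 0.0066 to 0.72 over all alternatives. That of WIPI1 was 0.17 and 0.099 without high-fertile pools 1 and 2, and 0.084 and 0.10 without low-fertile pools 1 and 2, in a range of 0.016 to 0.29 over all alternatives, and the median of the WIPI1 probes differed by -0.55.

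Closest to the 10 genes are the other partners of conjugation, ATG4 proteases and ATG8 proteins, of which 6 of 8 had a tested probe and 1 passed. ATG16L2, a relative of the protein that anchors the ATG12-ATG5 conjugate, read 1.58 and 1.58 in high-fertile pools 1 and 2, and 2.21 and 2.26 in low-fertile pools 1 and 2. Its difference was 0.66 ± 0.14 (SE, limma adjusted p = 0.023). The limma adjusted p was 0.10 without either high-fertile pool and 0.069 without low-fertile pool 2, in a range of 0.0030 to 0.23 over all alternatives. The proteases ATG4C and ATG4D, relatives of ATG4B, differed by 0.29 and 0.62 and did not pass (limma adjusted p = 0.31 and 0.060). MAP1LC3A, a close relative of MAP1LC3B, read 2.35, 2.63, 2.46 and 2.58, with overlapping groups and a difference of 0.032. GABARAPL1 differed by 0.11 and ATG16L1 by 0.046, neither past the threshold.

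Of the 6 tested cargo receptors, which tie cargo to ATG8 proteins, TAX1BP1 was higher and 2 were lower. TAX1BP1 read 3.99 and 4.24 in high-fertile pools 1 and 2, and 5.47 and 5.59 in low-fertile pools 1 and 2, a difference of 1.41 ± 0.16 (SE, limma adjusted p = 0.0042). It was the only tested probe of 4 for that gene, and the median of its probes differed by 0.27 (limma adjusted p = 0.45, in a range of 0.00042 to 0.45 over all alternatives). The genes that were lower are named after their values were seen, since none of them was well above background on all 4 arrays. They were TMEM41B, a lipid scramblase, at -1.96, BNIP3L, a receptor for mitochondria, at -1.45, and OPTN, a receptor for ubiquitin-tagged cargo, at -0.96 (limma adjusted p = 0.0047, 0.0038 and 0.018). All 3 entered the test through the high-fertile pair alone, the group where they were high, so the filter itself favoured this direction. With normexp background correction the differences of TMEM41B, BNIP3L and OPTN were -0.45, -0.78 and -0.17. With no filter on dim probes the limma adjusted p of BNIP3L was 0.12. The median of the TMEM41B probes differed by -0.92 (limma adjusted p = 0.21, in a range of 0.0014 to 0.21 over all alternatives). OPTN had a limma adjusted p of 0.058 and 0.090 without high-fertile pools 1 and 2, in a range of 0.0068 to 0.18 over all alternatives. Neither tested gene of fusion and lysosome control, TECPR1 and TFEB, passed, at 0.44 and 0.14.

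**Figure D5:**
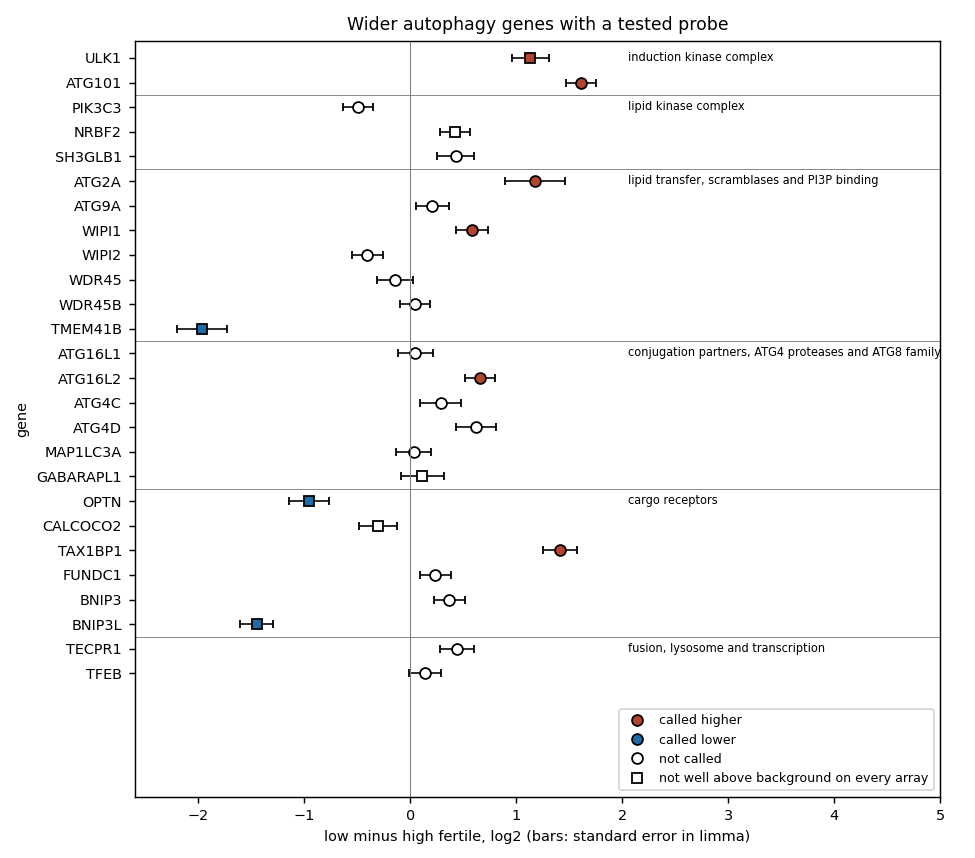
Low minus high fertile difference (x axis, log2, with the standard error from limma) of the 26 tested genes of the wider pathway (y axis), grouped by function. Red and blue points passed an adjusted p of 0.05 and squares were not well above background on every array. ATG101, at 1.61, is the highest and TMEM41B, at -1.96, the lowest.

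The identity of the material was read from marker genes on the same arrays. Of 16 sperm markers, 5 were well above background on all 4 arrays (PRM1, TNP1, ODF1, ACRBP and ACR) and 7 on none (AKAP3, AKAP4, SMCP, SPA17, CRISP2, LDHC and PGK2). Of 8 leukocyte markers, 5 were well above background on all 4 arrays, PTPRC among them, and of 6 epithelial markers 4 were. The summed leukocyte level was 7.97 and 8.00 log2 units in high-fertile pools 1 and 2, and 8.53 and 8.65 in low-fertile pools 1 and 2. Of the list, PTPRC differed by 0.78, CD4 by -0.46, CD3E by -0.30 and ITGB2 by -0.086, and the median difference of the list was 0.070. The summed level of the sperm list was 4.75 and 4.53, then 4.41 and 4.61, with a median difference of -0.0061. The epithelial list had a median difference of 0.33, with CLDN4 at 0.50, KRT8 at 0.28, KRT18 at 0.14 and KRT19 at -0.078 on all 4 arrays and CDH1 at 0.94 and EPCAM at 0.39 well above background on none, and its summed level was 4.53 and 4.51, then 4.60 and 4.76. The red cell list of 3 genes had a median difference of -0.17, with HBB at 1.24, HBA at -0.17 and ALAS2, well above background on no array, at -0.41. The 3 measured genes of Sertoli and early germ cells had one of 0.087. The part of other cells in the autophagy values was not tested. On the slide, 1 row carried the high-fertile arrays and the other row the low-fertile ones, so row and fertility cannot be told apart.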

How the data were processed

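The 10 genes and the gene lists were chosen with earlier results of these arrays known. Total RNA was amplified from the poly(A) end, labelled with Cy3 and hybridised to 1-colour arrays on 1 slide. The authors deposited Agilent Feature Extraction 11.5.1.1 files, whose processed signal is an intensity after background subtraction and spatial and multiplicative detrending, and a table of log2 values, which the authors had shifted to the 75th percentile of each array. Here log2 processed signals, without control and outlier spots, were shifted to the 75th percentile of each array and spots of a probe were averaged. Groups were compared in limma 3.58.1 (R 4.3.3), over probes that either group had well above background on both of its arrays, with Benjamini-Hochberg adjustment at 0.05. Probes of the 10 genes took part in this fit, but their differences are descriptions and their calls support nothing, since the genes were chosen on this comparison. All of their probes are named, and of the wider list those past the threshold and well above background on all 4 arrays, at most 6 in each direction. Limma was also run on 3 simulated data sets with 200 changed probes each, whose outcome is not given here. Their spread was drawn from the limma fit itself, so they cannot test that spread. Alternatives covered scaling, background, filters, spatial correction, the deposited table, left-out pools, a pool block, the methods' t-test and the median over probes. The number of arrays limits the precision. Python 3.11.15, scipy 1.17.1 and RefSeq names (ARS-UCD2.0) were used, in which the accessions of 27 of the 28 probes had the same symbol as on the array.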

Additional observations from a re-analysis of the deposited data

How the results depend on the processing

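The ATG3 difference at its brightest probe stayed positive in the 13 alternatives that gave a value, between 2.24 and 6.54. It was 2.24 with normexp background correction and 2.64 with the median over both probes. Leaving out spots on patches, those with at least 2 of 6 nearest spots off by over 2, removed the probe on all arrays and gave no value. The median over the 10 genes was -0.34 on the spike-in scale. Leaving out each pool in turn put it between -0.13 and 0.26. ATG7 turned to -0.20 and ATG5 to -0.76 with the median over their probes, where ATG4B was 0.27, BECN1 turned to 0.48 after local spatial correction, and GABARAPL2 to -0.17 on the spike-in scale and -0.25 after local spatial correction. WIPI1 turned to -0.55 with the median over probes. With no filter on dim probes limma called 0 probes and 0 wider genes (9278 and 11 at an unadjusted p under 0.05), and the methods' t-test called 0 and 0 after adjustment (6084 and 12 unadjusted). The median over probes left 4 wider genes, and leaving out each pool gave 2644 to 4989 probes and 5 to 8 wider genes. The number of probes moved by less than 1.5 times under the remaining alternatives, between 4339 and 7328, and that of wider genes lay between 7 and 12. With the pool number as a replicate block the ATG3 difference was 5.65 and 8 wider genes passed, without WIPI1. Pool numbers are numbers within a group, and the sources do not say that they pair samples. The pool 1 minus pool 2 differences of the groups had r = 0.0055 over 21024 probes. That shows no shared effect of pool number, but it cannot show whether samples were paired. The raised spots near ATG3 on the low-fertile arrays were 6 of 12, 8 at a limit of 1, and 3 and 5 of the 24 nearest, 8 in all.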
